A study of Mus musculus and Rattus norvegicus with 21 samples.

Results

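The mouse genome encodes collagen in many separate chain genes, and 44 of the 21000 protein-coding genes in the curated RefSeq annotation of GRCm38 carry a symbol made of Col, a type number, the letter a and a chain number. These 44 collagen chain genes were taken by symbol alone, with no measured value used. They were described as 11 fibrillar, 8 basement membrane and 25 other collagens, and together they had 49 transcription start sites (TSSs), with 1 TSS in 39 genes and 2 in the other 5. The rat cell libraries of the same series were not used here.

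Chromatin immunoprecipitation sequencing (ChIP-seq) of mouse thyroid glands provided 8 histone libraries and 2 transcription factor (TF) libraries. H3K4me3 and H3K27me3 were each mapped in wild-type (WT) and Glis3-deficient (Glis3KO) C57BL/6 mice kept on NIH-31 normal diet (ND) or on the low iodine diet TD.95125 (LID), giving the groups WT-ND and Glis3KO-ND, then WT-LID and Glis3KO-LID. All are labelled as 1 month of age. NKX2.1 and PAX8 were mapped in glands labelled WT-LID. Each group had 1 library of each mark or factor. The labels give the mutant allele as B6.Glis3<tm2(mCherry)Amj>, while the study's methods name a tm3 allele for it. For NKX2.1 and PAX8 the methods name Glis3-EGFP mice, whose GLIS3 is fused to EGFP, at a greater age than in the labels and after a longer time on the LID than the histone mice. Factor peaks and histone regions of WT-LID are therefore not from the same mice by the methods, and age, allele and time on the diet cannot be told apart where they are overlaid. Pooling of glands within a library is not given in those sources. With 1 library per group, no difference between groups has a replicate check, and counts are therefore set beside the share of all 21000 genes that met the same criterion in the same lists.

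Collagens are triple helices assembled from such chains, and fibrillar collagens such as types I, II, III and V pack into the banded fibres of connective tissue and cartilage. Type IV collagen forms the network of basement membranes, the sheets on which epithelia and vessels rest, and every thyroid follicle is wrapped in such a sheet beside a dense capillary bed. H3K4me3 is the histone mark of active or poised promoters, H3K27me3 is placed by Polycomb repressive complex 2 at silenced developmental genes, and NKX2.1 and PAX8 are the homeodomain and paired-domain TFs that define thyroid follicular cells.

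Sequences of 4 factor peaks are shown because they represent the arrangements of NKX2.1 and PAX8 found at these genes. All are 300 bp of the plus strand of mm10 (GRCm38), with capitals for the letters of the NKX core CACTNNAG or the PAX core GCNTGAC, searched on both strands. The Col4a6 peak, chrX:141470651-141470950, lay in intron 2 of Col4a6 and upstream of its divergent neighbour Col4a5, and it overlapped a PAX8 peak. The Col18a1 peak, chr10:77165687-77165986, lay in intron 2 and also overlapped a PAX8 peak. The Col4a1 peak, chr8:11314662-11314961, was a PAX8 peak upstream of Col4a1 and in intron 3 of Col4a2, without NKX2.1. The Col13a1 peak, chr10:61980480-61980779, was an NKX2.1 peak upstream of a gene that carried H3K27me3 in all 4 groups.
Col4a6 NKX2.1 peak: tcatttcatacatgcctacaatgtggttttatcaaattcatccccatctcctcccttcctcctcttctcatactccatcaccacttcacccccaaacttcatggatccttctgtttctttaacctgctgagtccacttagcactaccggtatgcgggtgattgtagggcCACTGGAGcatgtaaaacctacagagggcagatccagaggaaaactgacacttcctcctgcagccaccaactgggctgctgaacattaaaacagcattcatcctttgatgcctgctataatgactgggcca
Col18a1 NKX2.1 peak: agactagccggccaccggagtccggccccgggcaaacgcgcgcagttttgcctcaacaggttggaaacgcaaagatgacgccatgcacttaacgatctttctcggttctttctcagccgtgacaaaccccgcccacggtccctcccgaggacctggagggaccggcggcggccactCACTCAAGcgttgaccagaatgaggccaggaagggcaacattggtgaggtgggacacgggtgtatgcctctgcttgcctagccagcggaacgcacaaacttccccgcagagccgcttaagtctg
Col4a1 PAX8 peak: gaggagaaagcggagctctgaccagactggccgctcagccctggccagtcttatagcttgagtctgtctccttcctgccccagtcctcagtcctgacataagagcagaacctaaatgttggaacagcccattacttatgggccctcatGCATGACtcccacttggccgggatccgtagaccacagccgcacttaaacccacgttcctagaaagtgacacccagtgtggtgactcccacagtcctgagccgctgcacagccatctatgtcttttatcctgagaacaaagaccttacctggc
Col13a1 NKX2.1 peak: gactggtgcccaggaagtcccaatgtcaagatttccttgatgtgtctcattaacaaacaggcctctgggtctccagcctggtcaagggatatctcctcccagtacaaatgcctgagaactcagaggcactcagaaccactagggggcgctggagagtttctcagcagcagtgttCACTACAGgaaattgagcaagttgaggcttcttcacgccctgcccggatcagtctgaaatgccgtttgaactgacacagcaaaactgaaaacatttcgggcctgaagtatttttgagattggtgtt

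The start-site sequences of 2 collagens are shown as a CpG-rich and a CpG-free example, with CpG dinucleotides in capitals, and run from 250 bases before to 50 bases after a RefSeq start site, 5′ to 3′ on the gene's own strand. Col13a1 (chr10:61979059-61979358 of GRCm38.p6, minus strand) had both marks in all 4 groups, and its 300 bases held 29 CpGs and 68.0% G and C. Col3a1 (chr1:45311288-45311587, plus strand) had neither mark in any group, and its window held 0 CpGs and 37.7% G and C. Over the 38 such windows found for 35 collagen genes the number of CpGs ran from 0 to 37 with a median of 11.5, beside a median of 14.0 over 20488 windows of 16853 protein-coding genes.
Col13a1 start-site window: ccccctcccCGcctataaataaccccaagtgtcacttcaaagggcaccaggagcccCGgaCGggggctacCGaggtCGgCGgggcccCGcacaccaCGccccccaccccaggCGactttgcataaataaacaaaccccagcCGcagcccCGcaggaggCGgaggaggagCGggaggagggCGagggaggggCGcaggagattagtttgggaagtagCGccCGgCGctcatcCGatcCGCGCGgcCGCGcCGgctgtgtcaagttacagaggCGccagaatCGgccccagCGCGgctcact
Col3a1 start-site window: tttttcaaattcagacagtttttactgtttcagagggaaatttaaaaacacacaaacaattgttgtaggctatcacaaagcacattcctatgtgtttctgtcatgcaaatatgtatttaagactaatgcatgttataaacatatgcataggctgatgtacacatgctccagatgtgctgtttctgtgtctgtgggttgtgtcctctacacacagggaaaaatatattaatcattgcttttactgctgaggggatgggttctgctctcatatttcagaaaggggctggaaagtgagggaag

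The histone lists were of like size for H3K4me3, with 15692 to 17044 regions. For H3K27me3 the WT-ND, Glis3KO-ND and WT-LID lists held 2631 to 4116 regions, while the Glis3KO-LID list held 18040 and covered 55.11 Mb against 7.47 to 13.26 Mb. This library stands apart from the rest, and collagen counts that rest on it are also given with the H3K27me3 lists cut to equal length, keeping the 2631 widest regions of each, or without it. The lists hold positions and no score, and the number of reads behind each is unknown, so a missing region may be a region below the caller's threshold. In these whole glands, fewer cells with a mark and less of the mark per cell cannot be told apart. The NKX2.1 and PAX8 lists held 46636 and 51586 peaks of 300 bp. The study reports fewer peaks for each factor in mouse thyroid, and whether every peak used here is in its set is unknown.

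Markers of the cell types in the gland were read the same way. Of 8 thyroid follicular cell markers 6 to 8 had H3K4me3 in each library and at most 1 had H3K27me3, 6 had an NKX2.1 peak and 7 a PAX8 peak. Tg, the thyroglobulin gene, had no H3K4me3 region in either WT library, while the Glis3KO libraries covered 1056 bp (ND) and 1091 bp (LID) of its window. Of 8 fibroblast markers 3 or 4 had H3K4me3, and Dcn, Lum, Postn and Mfap5 had neither mark in any library. Summed H3K4me3 over these markers was 3050 bp on the ND and 4050 bp on the LID in WT, and 4006 and 3584 bp in Glis3KO. H3K27me3 stood at 2, 2, 3 and 4 fibroblast markers, given, as in all sets of 4 values, first for the ND (WT, then Glis3KO) and then for the LID (WT, then Glis3KO). The endothelial markers, also 8, carried summed H3K4me3 of 4897, 5356, 8668 and 6462 bp with 4 to 7 of them marked, and H3K27me3 at 0, 0, 0 and 3. Chondrocyte markers, 8 genes such as Acan and Matn1, had H3K4me3 at 4, 5, 4 and 4 genes and H3K27me3 at 2, 3, 2 and 7, with summed coverage of 3113, 5157, 3686 and 13560 bp. Over all genes H3K4me3 stood at 62.2, 62.5, 63.0 and 60.1% and H3K27me3 at 6.44, 8.68, 6.50 and 17.5%. NKX2.1 stood at 35.4% and PAX8 at 42.0% of all genes. The marker values of H3K27me3 in Glis3KO-LID rest on its list of 18040 regions and were not recomputed at equal list length. The part of these cell types in the collagen results was not tested.

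H3K4me3 was read first, to see which collagen promoters carried the mark of active chromatin in the thyroid. A gene was called marked when a region reached the window 1 kb either side of a TSS, and the number of covered bases out of 2001 was taken as its value. The mark was found at 30 of 44 collagen genes in WT-ND (62.2% of all genes) and 26 in WT-LID (63.0%), and at 29 in Glis3KO-ND (62.5%) and 25 in Glis3KO-LID (60.1%). In the order just given these are 68.2, 59.1, 65.9 and 56.8% of the collagens, near the background on either side. The families differed in the counts, with the basement membrane collagens marked at 8, 8, 6 and 8 of 8 genes, the fibrillar collagens at 9, 8, 9 and 7 of 11 and the other collagens at 13, 13, 11 and 10 of 25.

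Constant H3K4me3 was less common at collagens than over all genes, and a mark that came and went between libraries was more common. In all 4 libraries 18 collagens (40.9%) were marked, against 56.6% of all genes. No library showed the mark at 10 collagens (22.7%), against 34.0% of all genes. The remaining 16 (36.4%) were marked in 1 to 3 libraries, against 9.32% of all genes. Where the 16 carried the mark, a median of 633.5 bp of the window was covered and at most 1240 bp, whereas the 18 constant collagens had a median of 1518.5 bp. Over all genes the corresponding medians were 821 and 1483 bp. Windows marked in some libraries were thus less fully covered, and the narrowest region in every H3K4me3 list was 501 bp. Of the 18 constant collagens, Col16a1 and Col24a1 had regions of that width in WT-ND. With the H3K4me3 lists cut to the 15692 widest regions, neither was kept in WT-ND. These classes were not recomputed at that length.

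**Figure D1:**
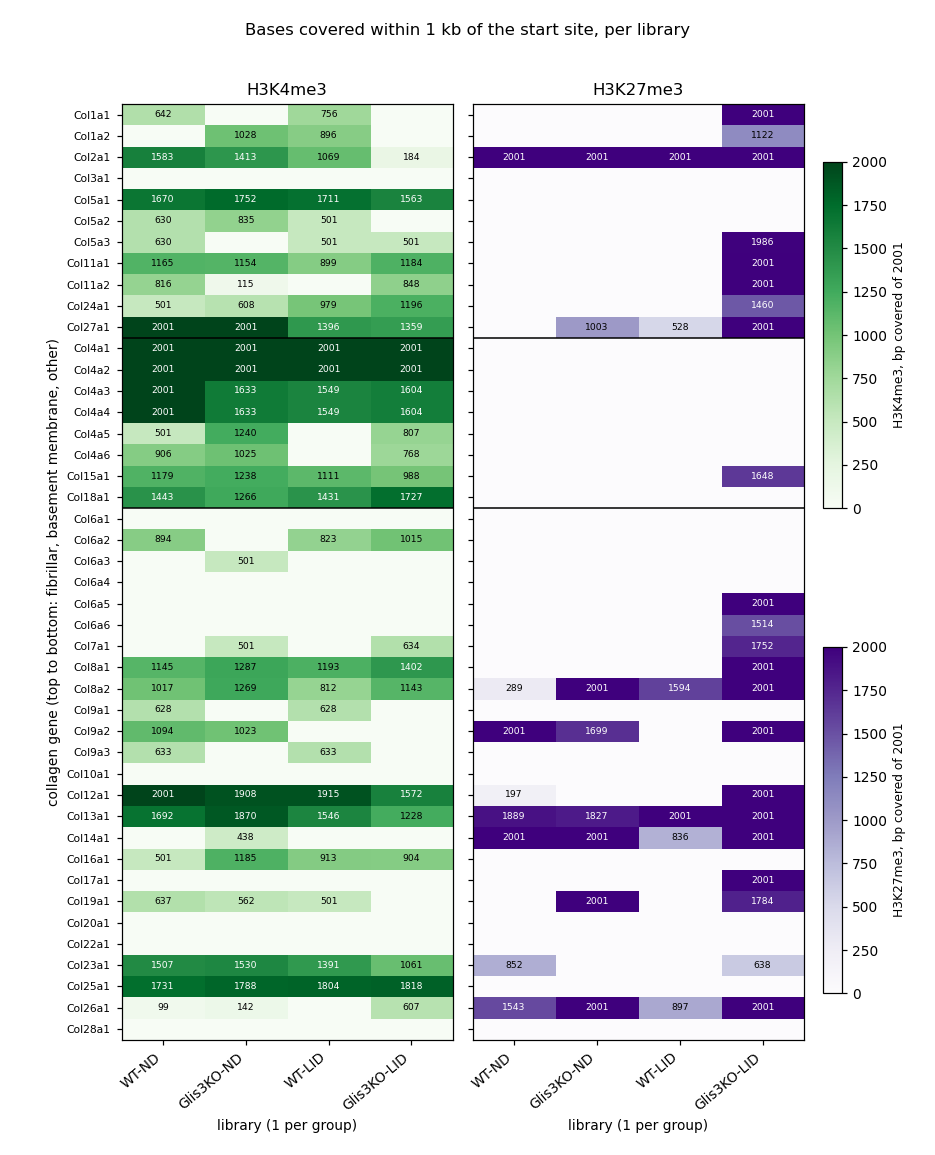
Each row is a collagen gene and each column a library, and the number and shade give the bases covered by H3K4me3 (left, green) or H3K27me3 (right, purple) of the 2001 bp around the TSS, with blank cells at 0. Col4a1 and Col4a2 are covered over all 2001 bp by H3K4me3 in all 4 libraries, and 22 genes carry H3K27me3 in Glis3KO-LID against 6 to 8 in the other libraries.

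The fibrillar collagens fell into constant and inconstant genes. Col5a1 (chromosome 2, 27886381 to 28039510, plus strand), whose chain starts and limits type I fibrils, had 1670, 1752, 1711 and 1563 bp of H3K4me3. Col27a1, a fibrillar collagen of cartilage, had 2001, 2001, 1396 and 1359 bp. Col2a1 (chromosome 15, 97975602 to 98004724, minus strand), the main collagen of cartilage, had 1583, 1413, 1069 and 184 bp. Both had less of the mark in the LID libraries than in the ND libraries, and Col2a1 had least in Glis3KO-LID. Col24a1, a minor fibrillar collagen, went the other way with 501, 608, 979 and 1196 bp. Col11a1, a chain of the thin cartilage fibrils, was marked throughout at 899 to 1184 bp.

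The type I chains, the bulk of connective tissue fibrils, and 3 minor fibrillar chains were marked in part of the libraries. Col1a1 (chromosome 11, 94936224 to 94953042, plus strand) had 642, 0, 756 and 0 bp, so that the mark was in both WT lists and in neither Glis3KO list. Col1a2 (chromosome 6, 4505618 to 4541543, plus strand), whose chain joins that of Col1a1 in the same triple helix, had 0, 1028, 896 and 0 bp and did not follow it. Col5a2, a type V chain, had 630, 835, 501 and 0 bp. Col5a3, of the same type, had 630, 0, 501 and 501 bp, and Col11a2, a cartilage fibril chain, had 816, 115, 0 and 848 bp. The windows of these 5 genes never held more than 1028 bp of the mark. Col3a1 (chromosome 1, 45311538 to 45349706, plus strand), the type III collagen of soft tissue, was without H3K4me3 in all 4 libraries although it lies beside Col5a2 on the chromosome.

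The basement membrane collagens had the fullest H3K4me3. Col4a1 and Col4a2, the chains of the ubiquitous type IV network, lie head to head on chromosome 8 with TSSs 21 bp apart, and the shared window was covered over 2001 bp in each library. The region over it was 3592, 3468, 6980 and 3608 bp wide. Col4a3 and Col4a4, which make the tissue-restricted network of kidney and lung, start 72 bp apart on chromosome 1 and had 2001, 1633, 1549 and 1604 bp. These head-to-head genes share their windows, so that each such pair is close to 1 observation.

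The third such locus was weaker. Col4a5 and Col4a6 lie on the X chromosome with TSSs 1343 bp apart, and Col4a5 had 501, 1240, 0 and 807 bp while Col4a6 had 906, 1025, 0 and 768 bp. WT-LID was the library without the mark at both. Col15a1, a multiplexin of vessel and muscle basement membranes, had 1179, 1238, 1111 and 988 bp. Col18a1 (chromosome 10, 77052178 to 77166530, minus strand), the multiplexin from which endostatin is cut, had 1443, 1266, 1431 and 1727 bp at its upstream TSS and 0 bp at its downstream TSS in each library.

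Among the other collagens, the transmembrane and short-chain genes carried most of the H3K4me3. Col12a1, a fibril-associated collagen, had 2001, 1908, 1915 and 1572 bp. Col25a1 and Col13a1, transmembrane collagens, had 1731, 1788, 1804 and 1818 bp and 1692, 1870, 1546 and 1228 bp. Col23a1, of the same kind, had 1507, 1530, 1391 and 1061 bp. In Col12a1, Col13a1 and Col23a1 the Glis3KO-LID library had the smallest value, while in Col25a1 it had the largest. Col8a1 and Col8a2, the network-forming chains of vessel walls and cornea, had 1145, 1287, 1193 and 1402 bp and 1017, 1269, 812 and 1143 bp. Col16a1, a fibril-associated collagen, had 501, 1185, 913 and 904 bp.

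Most of the remaining genes were marked in a few libraries or in none. Col9a1 and Col9a3, chains of the cartilage type IX collagen, had 628, 0, 628 and 0 bp and 633, 0, 633 and 0 bp, which is the pattern of Col1a1. At Col9a1 the covered bases lay at its downstream TSS, and its upstream TSS had 0 bp in each library. Col9a2, the partner of both, had 1094, 1023, 0 and 0 bp, the mark being in both ND lists and in neither LID list. Col7a1, the anchoring fibril collagen beneath epithelia, had 0, 501, 0 and 634 bp, with the mark in both Glis3KO lists. Col6a2, a chain of the beaded type VI filaments, had 894, 0, 823 and 1015 bp, while Col6a3 had 0, 501, 0 and 0 bp. Col6a1 was without the mark in each library. Col14a1 had 0, 438, 0 and 0 bp, Col19a1 had 637, 562, 501 and 0 bp, and Col26a1 had 99, 142, 0 and 607 bp. Col6a4, Col6a5, Col6a6, Col10a1, Col17a1, Col20a1, Col22a1 and Col28a1 had no H3K4me3 in any library. Several of these are collagens of cartilage, skin or muscle.

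H3K4me3 was then compared between genotypes on each diet and between diets in each genotype, and these comparisons share their libraries. On the ND it was present in Glis3KO and absent in WT at 4 collagens (2.39% of all genes), namely Col1a2, Col6a3, Col7a1 and Col14a1, and absent in Glis3KO and present in WT at 5 (2.12% of all genes), namely Col1a1, Col5a3, Col6a2, Col9a1 and Col9a3. On the LID it was present in Glis3KO and absent in WT at 5 (1.41% of all genes), namely Col4a5, Col4a6, Col7a1, Col11a2 and Col26a1, and absent in Glis3KO and present in WT at 6 (4.33%), namely Col1a1, Col1a2, Col5a2, Col9a1, Col9a3 and Col19a1. The collagen shares of 9.09, 11.4, 11.4 and 13.6% exceeded these backgrounds in both directions. The genotype pattern was the same on both diets at 3 collagens marked in WT alone (0.624% of all genes), Col1a1, Col9a1 and Col9a3, and at 1 marked in Glis3KO alone (0.281%), Col7a1. The Glis3KO-ND region at Col7a1 was 501 bp wide. With the H3K4me3 lists cut to 15692 regions it was not kept, while Col1a1, Col9a1 and Col9a3 kept theirs in both WT lists. The gain and loss counts of H3K4me3 were not recomputed at that length.

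Between diets, H3K4me3 of WT glands was present on the LID and absent on the ND at 1 collagen (2.54% of all genes), Col1a2, and absent on the LID and present on the ND at 5 (1.79%), Col4a5, Col4a6, Col9a2, Col11a2 and Col26a1. In Glis3KO glands the counts were 2 (1.63%), Col5a3 and Col6a2, and 6 (4.06%), Col1a2, Col5a2, Col6a3, Col9a2, Col14a1 and Col19a1. Col9a2 was the collagen with the mark in both ND libraries and neither LID library (0.481% of all genes). In covered bases, 20 collagens had fewer and 7 had more on the LID than on the ND in WT, whereas over all genes 26.3% had fewer and 32.4% more. In Glis3KO 19 collagens had fewer and 10 more, beside 39.2 and 20.4% of all genes.

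H3K27me3 was read in the same windows, to see which collagen promoters carried the Polycomb mark. It was found at 8 collagens in WT-ND (6.44% of all genes) and 6 in WT-LID (6.50%), and at 8 in Glis3KO-ND (8.68%) and 22 in Glis3KO-LID (17.5%). These are shares of 18.2% on the ND in each genotype and 13.6% in WT-LID, and 22 of 44 genes in Glis3KO-LID, each above the background of its own list. The basement membrane collagens stood at 0, 0, 0 and 1 of 8, the fibrillar collagens at 1, 2, 2 and 8 of 11, and the other collagens at 7, 6, 4 and 13 of 25. At equal list length the Glis3KO-LID counts were 0 basement membrane, 3 fibrillar (Col1a1, Col2a1 and Col27a1) and 4 other collagens (Col8a2, Col13a1, Col19a1 and Col26a1). Of the 44 genes 22 had no H3K27me3 in any library, against 82.3% of all genes, and 7 (15.9%) had neither mark in any library, against 29.8% of all genes. Leaving out the Glis3KO-LID library, 10 collagens (22.7%) carried H3K27me3 in at least 1 library, against 10.4% of all genes.

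**Figure D2:**
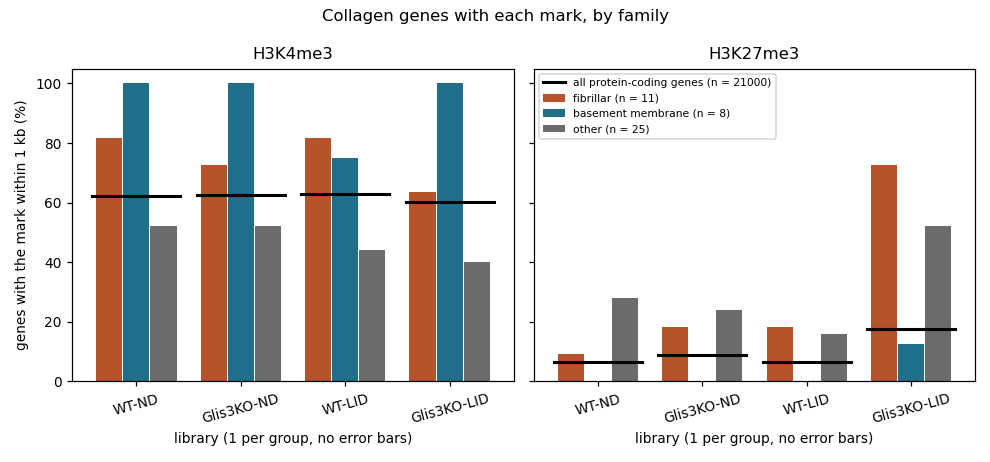
Bars give the percentage of fibrillar, basement membrane and other collagens marked by H3K4me3 (left) or H3K27me3 (right) within 1 kb of a TSS in each library, and black lines give the percentage of all 21000 protein-coding genes. For H3K27me3 the basement membrane collagens are at 0% in 3 libraries and at 12.5% in Glis3KO-LID, where the fibrillar collagens reach 72.7%, or 3 of 11 genes at equal list length.

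H3K27me3 was present in all 4 libraries at 5 collagens (11.4%, against 4.18% of all genes), which were Col2a1, Col8a2, Col13a1, Col14a1 and Col26a1. Col2a1 was covered over all 2001 bp in each library, and its H3K27me3 region was 8161, 8302, 9002 and 19876 bp wide. Col13a1 had 1889, 1827, 2001 and 2001 bp. Col14a1, a fibril-associated collagen of tendon and skin, had 2001, 2001, 836 and 2001 bp. Coverage of Col2a1 and Col13a1 was near full everywhere, while that of Col14a1 was lowest in WT-LID. Col26a1 had 1543, 2001, 897 and 2001 bp, and Col8a2 had 289, 2001, 1594 and 2001 bp. Over the whole gene, H3K27me3 covered 51.4% of Col2a1 in Glis3KO-LID and 18.8 to 21.6% in the other libraries.

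Another 5 collagens had H3K27me3 in Glis3KO-LID and in 1 or 2 of the other libraries. Col27a1 had 0, 1003, 528 and 2001 bp. Col9a2 had 2001, 1699, 0 and 2001 bp. Col19a1, a fibril-associated collagen, had 0, 2001, 0 and 1784 bp so that the mark was in the Glis3KO lists of both diets and in no WT list (1.76% of all genes). Each of these 3 lacked the mark in 1 or both WT libraries, as did Col12a1 and Col23a1, which lacked it in Glis3KO-ND too. Col12a1 had 197, 0, 0 and 2001 bp, and Col23a1 had 852, 0, 0 and 638 bp. The 197 bp at Col12a1 came from the edge of a region 1001 bp wide, the smallest width in the list. The WT-ND region at Col23a1 had the same width.

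A further 12 collagens (27.3%, against 7.33% of all genes) had H3K27me3 in the Glis3KO-LID library alone. They were the fibrillar genes Col1a1, Col1a2, Col5a3, Col11a1, Col11a2 and Col24a1, the basement membrane gene Col15a1, and Col6a5, Col6a6, Col7a1, Col8a1 and Col17a1. Their Glis3KO-LID coverage ran from 1122 bp at Col1a2 to 2001 bp at Col1a1, Col6a5, Col8a1, Col11a1, Col11a2 and Col17a1. At Col1a1 the region was 17240 bp wide, and H3K27me3 covered 46.8% of the gene in Glis3KO-LID, 5.95% in WT-ND and 0% in the other libraries. With all 4 lists cut to the 2631 widest regions, 1 collagen, Col1a1, remained in the Glis3KO-LID list alone (1.33% of all genes). The counts at this equal length were 7 in WT-ND (6.05% of all genes) and 6 in WT-LID (6.50%), with 8 in Glis3KO-ND (7.55%) and 7 in Glis3KO-LID (7.50%), and in Glis3KO-LID the narrowest region kept was 4869 bp.

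Between genotypes on the LID, H3K27me3 was present in Glis3KO and absent in WT at 16 collagens (11.0% of all genes) and absent in Glis3KO and present in WT at 0 (0.0571% of all genes). At equal list length the first count was 2, Col1a1 and Col19a1 (2.84% of all genes). On the ND, where the lists were closer in length, the counts were 2 (3.30%), Col19a1 and Col27a1, and 2 (1.07%), Col12a1 and Col23a1. Between diets in WT, the mark was present on the LID and absent on the ND at 1 collagen (2.07%), Col27a1, and absent on the LID and present on the ND at 3 (2.01%), Col9a2, Col12a1 and Col23a1. In Glis3KO the counts were 14 (8.93%) and 0 (0.152%), again with the Glis3KO-LID list on the higher side, and at equal list length the first was 1, Col1a1 (2.08%).

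Both marks within the same window were counted in each library. They were found together at 7 collagens in WT-ND (5.02% of all genes) and 4 in WT-LID (5.21%), and at 8 in Glis3KO-ND (6.56%) and 14 in Glis3KO-LID (10.7%). At equal H3K27me3 list length the Glis3KO-LID count was 5 (4.95% of all genes), namely Col2a1, Col8a2, Col13a1, Col26a1 and Col27a1. Col2a1, Col8a2 and Col13a1 had both marks in all 4 libraries. Against WT-LID, the Glis3KO-LID lists lacked H3K4me3 and held H3K27me3 at 3 collagens (0.886% of all genes), Col1a1, Col1a2 and Col19a1. The 2 type I collagen genes were thus without H3K4me3 and with H3K27me3 in Glis3KO-LID, and with H3K4me3 and without H3K27me3 in WT-LID. At equal list length this held for Col1a1 and Col19a1 (0.257% of all genes) and not for Col1a2, whose H3K27me3 region of 1971 bp was narrower than the 4869 bp of the narrowest region kept. On the ND neither had H3K27me3 within 1 kb of its TSS, and H3K4me3 was at Col1a1 in WT and at Col1a2 in Glis3KO.

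CpG content, which the choice of genes did not use, was computed over 1001 bp at each TSS as the observed over expected number of CpG dinucleotides. The collagens had a median of 0.455, against 0.615 over all genes, and 13 of 44 (29.5%) lay above 0.6, against 51.5% of all genes. The 10 genes with H3K27me3 in a library other than Glis3KO-LID had a median of 0.704 and a range of 0.517 to 0.874. The 12 genes with H3K27me3 in Glis3KO-LID alone, a class that held Col1a1 only at equal list length, had a median of 0.418 and a range of 0.257 to 0.683, and the 22 without it a median of 0.386. Over all genes the medians of these classes were 0.667, 0.494 and 0.615. The collagens marked in Glis3KO-LID alone therefore had less CpG than those marked elsewhere, and 1 of the 12, Col15a1, lay above 0.6 against 8 of the 10. By H3K4me3, the medians were 0.677 for the 18 constant collagens, 0.423 for the 16 inconstant and 0.252 for the 10 without it.

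**Figure D3:**
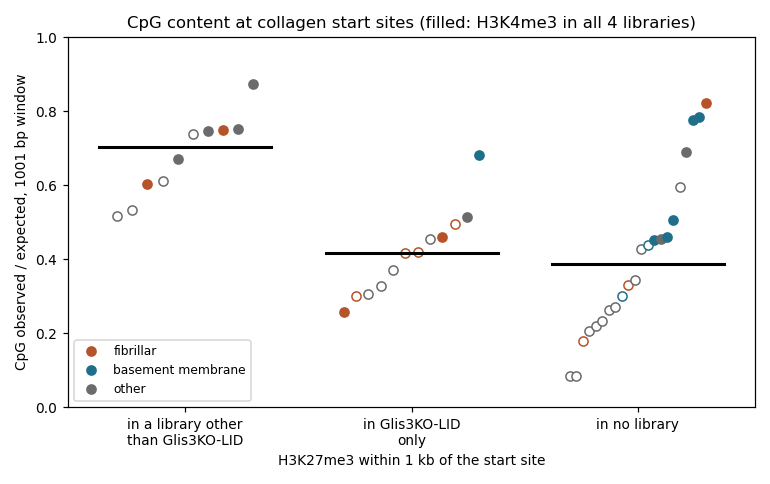
Points give the observed over expected CpG of the 1001 bp around the TSS of each collagen gene, grouped by where H3K27me3 was found, with black lines for medians and filled points for genes with H3K4me3 in all 4 libraries. The 10 genes with H3K27me3 outside Glis3KO-LID lie between 0.517 and 0.874, and the 12 with it in Glis3KO-LID alone lie between 0.257 and 0.683.

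Binding of the thyroid TFs was compared next between the families. Within 5 kb of a TSS, NKX2.1 had a peak at 11 of 44 collagens (35.4% of all genes) and PAX8 at 22 (42.0% of all genes), which is 25.0% of the collagens for the former and 22 of 44 for the latter. The families differed, with NKX2.1 at 6 of 8 basement membrane, 2 of 11 fibrillar and 3 of 25 other collagens, and PAX8 at 8 of 8, 4 of 11 and 10 of 25. Both TFs were found at 9 collagens (25.2% of all genes), of which 6 were basement membrane genes, and their peaks overlapped at 5 (16.8%). NKX2.1 without PAX8 was found at 2 collagens (10.2%), Col7a1 and Col13a1, and PAX8 without NKX2.1 at 13 (16.8%). Among the 13 are Col12a1 and Col16a1, which the study lists with binding of both factors within 5 kb. The list used here held no NKX2.1 peak in that window at either, and the reason for the difference was not tested. Counting each head-to-head locus once gave 9 collagen loci with NKX2.1, 19 with PAX8 and 4 with overlapping peaks. All type IV genes lie in such loci and share their peaks, so the basement membrane counts out of 8 hold fewer separate observations.

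The basement membrane genes had factor peaks at or near their promoters. At Col4a1 and Col4a2 an NKX2.1 peak (chr8:11311895-11312194) was centred 782 bp into Col4a1, in intron 1, and 761 bp upstream of Col4a2. PAX8 peaks lay 896 and 1985 bp upstream of Col4a1, which is 917 and 2006 bp into Col4a2. All of these lay within H3K4me3 regions of WT-LID. At Col4a3 and Col4a4 a PAX8 peak (chr1:82586574-82586873) was centred 198 bp upstream of the former and in exon 1 of the latter, 126 bp from its TSS, and NKX2.1 had no peak within 5 kb. A second PAX8 peak lay 3536 bp into Col4a3.

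At Col4a5 and Col4a6, NKX2.1 and PAX8 peaks overlapped 4619 and 4623 bp upstream of Col4a5, in intron 2 of Col4a6, and the NKX2.1 peak is the Col4a6 sequence printed above. Another NKX2.1 peak lay 606 bp into Col4a5, in intron 1. No H3K4me3 region of WT-LID reached any of these peaks. At Col15a1 the peaks of both TFs overlapped 4111 and 4187 bp upstream of the TSS. Col18a1 had an overlapping pair 694 and 662 bp from its upstream TSS, in intron 2 and within H3K4me3, and NKX2.1 peaks 3510 and 4850 bp upstream of its downstream TSS. The overlapping pair at Col18a1 was the single case with both TFs and the active mark of WT-LID in the same place.

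**Figure D4:**
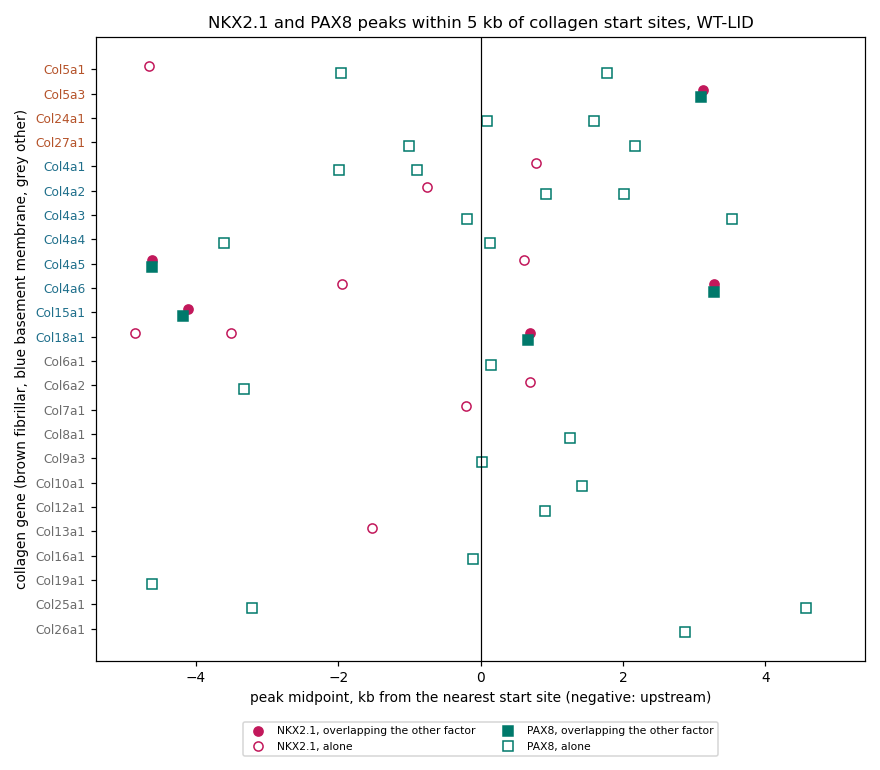
Circles (NKX2.1) and squares (PAX8) give the midpoint of each peak within 5 kb of the TSS of 24 collagen genes in WT-LID, in kb from the nearest TSS, filled where the peak overlaps a peak of the other factor. Overlapping pairs appear at Col5a3, Col4a5, Col4a6, Col15a1 and Col18a1, and Col4a5 and Col4a6 show the same pair.

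The fibrillar collagens with factor peaks were Col5a1, Col5a3, Col24a1 and Col27a1. Col5a1 had an NKX2.1 peak 4660 bp upstream and PAX8 peaks 1961 bp upstream and 1772 bp into intron 1. Col5a3 had overlapping peaks of both TFs about 3 kb into the gene, at 3125 and 3099 bp. Col24a1 had PAX8 peaks in exon 1, 93 bp from the TSS, and 1596 bp into intron 1. Each held the PAX core. Col27a1 had PAX8 peaks 1014 bp upstream and 2171 bp downstream of the TSS, the former on both H3K4me3 and H3K27me3 regions of WT-LID. The type I, II and III genes Col1a1, Col1a2, Col2a1 and Col3a1 lacked peaks of both TFs in this window, and their nearest PAX8 peaks were 15782, 95486, 48782 and 489192 bp away.

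The other collagens had mostly PAX8 peaks. Col9a3, Col16a1 and Col6a1 had them at the TSS itself, centred 20 bp downstream, 113 bp upstream and 149 bp downstream. Col6a1 had PAX8 there with neither histone mark in any library, as had Col10a1, the hypertrophic cartilage collagen, with a peak 1423 bp into the gene. Further PAX8 peaks lay at Col12a1 (900 bp), Col8a1 (1261 bp) and Col26a1 (2864 bp), all in intron 1, at Col25a1 (3219 bp upstream and 4569 bp downstream) and 4618 bp upstream of Col19a1. NKX2.1 was centred 694 bp into Col6a2, 207 bp upstream of Col7a1 and 1521 bp upstream of Col13a1. The peak at Col13a1 was the NKX2.1 peak of a collagen that lay on an H3K27me3 region of WT-LID, and Col6a2 also had PAX8, 3325 bp upstream.

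The distance to the nearest peak was lowest for the basement membrane genes. For NKX2.1 the median over 8 basement membrane genes was 1365.5 bp and the farthest 8940 bp, against medians of 40301 bp for fibrillar and 27771 bp for other collagens. For PAX8 the medians were 906.5, 15782 and 17455 bp. The type IV genes lie in head-to-head loci that share peaks, so the 8 basement membrane genes are fewer separate observations. Within 1 kb the counts were 6 collagens for NKX2.1 (21.1% of all genes), 11 for PAX8 (29.3%) and 1 for overlapping peaks (8.26%), and 4 of the 6, 5 of the 11 and the 1 were basement membrane genes. Within 20 kb they were 21 (59.0%), 30 (62.9%) and 16 (37.2%), with all 8 basement membrane genes in each count. Over whole genes, peak density in the basement membrane collagens was 3.63 NKX2.1 and 3.71 PAX8 peaks per 100 kb, against 1.05 and 1.72 in the fibrillar collagens and 2.76 and 3.14 over all genes.

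**Figure D5:**
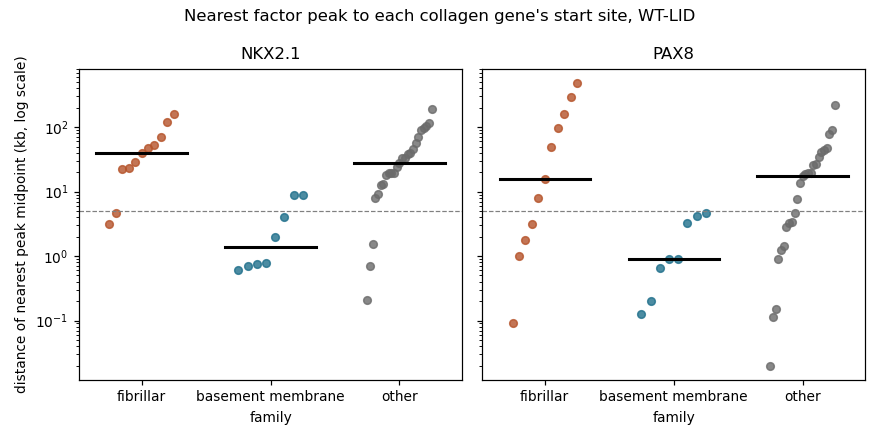
Points give the distance in kb, on a log scale, from the TSS of each collagen gene to the midpoint of the nearest NKX2.1 (left) or PAX8 (right) peak in WT-LID, by family, with black lines for medians and a dashed line at 5 kb. All 8 basement membrane genes lie below 10 kb for NKX2.1 and below 5 kb for PAX8, and the fibrillar genes reach 161924 and 489192 bp.

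The letters of the factor cores were counted in the distinct peaks within 5 kb of collagens. The NKX core CACTNNAG was found in 7 of 12 NKX2.1 peaks (58.3%), against 35.9% of all NKX2.1 peaks, and in 3 of 25 PAX8 peaks (12.0%), against 28.0% of all PAX8 peaks. The PAX core GCNTGAC was found in 5 of 25 PAX8 peaks (19.8% of all PAX8 peaks) and in 0 of 12 NKX2.1 peaks (all peaks 12.9%). Of the collagen peaks 4 of 12 NKX2.1 peaks (33.3%) overlapped a PAX8 peak, against 50.8% of all NKX2.1 peaks, and 4 of 25 PAX8 peaks (16.0%) overlapped an NKX2.1 peak, against 45.9%. The Col26a1 peak held both cores. In the printed sequences, the Col4a6, Col18a1 and Col13a1 peaks each had 1 NKX core and the Col4a1 peak 1 PAX core, and none of these matches overlapped the other core.

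Factor binding was also set beside the marks. Of the 18 collagens with H3K4me3 in all libraries 6 had NKX2.1 and 13 had PAX8 within 5 kb, against 48.9 and 59.9% of all genes of that class. Of the 10 without H3K4me3, 0 had NKX2.1 and 2 had PAX8, against 13.0 and 13.5%. Of the 12 collagens with H3K27me3 in Glis3KO-LID alone 3 had NKX2.1 and 4 had PAX8, against 25.9 and 34.2% of all genes of that class. Of the 10 with H3K27me3 in another library 1 had NKX2.1 and 4 had PAX8, against 19.2 and 30.3%.

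Genes whose products make, process and hold collagen were read in the same windows. The 17 enzymes and chaperones of collagen synthesis, such as the prolyl 4-hydroxylases and lysyl hydroxylases, had H3K4me3 at 16, 17, 17 and 17 genes and H3K27me3 at 0, 2, 0 and 2, and 9 had NKX2.1 and 10 PAX8. Coverage by H3K4me3 was full at P4hb and P3h1 in WT-ND and, with Plod3, in WT-LID, and lowest at P4ha3, with 0, 641, 629 and 501 bp. The 12 genes of propeptide cleavage and crosslinking had H3K4me3 at 11, 10, 11 and 9 and H3K27me3 at 3, 4, 3 and 6, and Adamts2 was the member with 2001 bp of H3K27me3 in each library. Over all genes H3K4me3 stood at 62.2, 62.5, 63.0 and 60.1% and H3K27me3 at 6.44, 8.68, 6.50 and 17.5%. NKX2.1 stood at 35.4% and PAX8 at 42.0% of all genes. The H3K27me3 counts of these lists in Glis3KO-LID were not recomputed at equal list length.

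The 16 laminins, nidogens and other partners of type IV collagen in basement membranes had H3K4me3 at 14, 12, 12 and 13 genes and H3K27me3 at 2, 2, 0 and 3, with NKX2.1 at 7 and PAX8 at 11. Lamc1, the common laminin gamma chain, had 2001, 2000, 2001 and 2001 bp of H3K4me3, while Nid1 and Lama2 had 0 bp of either mark. Of 8 collagen receptor genes 4, 5, 4 and 4 had H3K4me3 and 1, 2, 0 and 2 had H3K27me3, with NKX2.1 at 3 and PAX8 at 2. Of 6 collagen-degrading proteases 2, 2, 3 and 3 had H3K4me3 and 1, 1, 2 and 2 had H3K27me3, with NKX2.1 at 2 and PAX8 at 3. The shares of all genes are those given for the synthesis genes, with NKX2.1 at 35.4% and PAX8 at 42.0%. Whether these short lists differ from those shares was not tested, and their Glis3KO-LID counts of H3K27me3 were not recomputed at equal list length.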

How the data were processed

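Peak lists of 8 histone and 2 factor libraries of mouse thyroid were used. The authors trimmed reads with Cutadapt 1.12, aligned unique hits to mm10 with Bowtie 1.2, removed duplicates with Picard 1.110 and called peaks per library with HOMER 4.10.3, factor peaks against an input and histone marks as broad regions with a larger region size for H3K27me3. Bedtools 2.24.0 is also named in the submitters' processing notes. The deposited lists hold chromosome, start, end and a name, with no score or depth, so that precision cannot be computed and no stricter threshold could be applied. Unified lists over all libraries and the rat lists were not used.

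TSSs were those of curated RefSeq transcripts of protein-coding genes on GRCm38, the same assembly. All peaks lay within the chromosomes used, except 35 on other sequences. Histone regions were merged, covered bases were summed in the window 1 kb either side of a TSS, and the best TSS of a gene was used. A factor peak was assigned within 5 kb, with 1 bp of overlap. Places in exons or introns refer to the longest curated transcript over the peak midpoint. Python 3.11.15, pysam 0.24.0 and samtools 1.23.1 were used, and the overlap code was tested on simulated data. Groups followed the labels. Members were named if they had H3K27me3 outside Glis3KO-LID, an H3K4me3 call that differed between libraries or a factor peak. The members and lists were chosen with earlier results of these data known. No test was run between single libraries. Alternatives were window size, coverage minimum, TSS choice, list length and shared windows.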

Additional observations from a re-analysis of the deposited data

Results flagged for a closer look

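The effects below had opposite directions in the groups compared. Each effect is the difference between 2 single libraries, so the difference between groups was not tested.

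Summed H3K4me3 over the 25 other collagens was 425 bp higher in Glis3KO than in WT on the ND, and on the LID it differed by -775 bp. At Col1a2, H3K4me3 differed between Glis3KO and WT by 1028 bp on the ND and by -896 bp on the LID. Equivalently, LID minus ND was 896 bp in WT and -1028 bp in Glis3KO.

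For H3K27me3, Glis3KO minus WT at Col12a1 was -197 bp on the ND and 2001 bp on the LID, and at Col23a1 it was -852 and 638 bp. LID minus ND gave the same values at these genes, -197 and -852 bp in WT and 2001 and 638 bp in Glis3KO, since WT-LID and Glis3KO-ND both lacked the mark. Summed over the other collagens, LID minus ND was -3444 bp in WT and 12167 bp in Glis3KO. All of these H3K27me3 differences with a positive sign rest on the Glis3KO-LID list of 18040 regions. With the H3K27me3 lists cut to equal length neither Col12a1 nor Col23a1 had the mark in Glis3KO-LID, so their positive differences were no longer present. Their regions there, 3970 and 2102 bp wide, were narrower than the 4869 bp of the narrowest region kept. In WT-ND the regions of both genes were 1001 bp wide, which was the narrowest width kept. Ties at that width were cut by chromosome order, which dropped Col12a1, with its negative differences, and kept Col23a1. The cut therefore does not separate these genes in WT-ND. The sums were not recomputed at equal length.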

How the results depend on the processing

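Of 88 values recomputed under an alternative, 75 stayed within 1.5 times the reported count and 13 did not. With H3K27me3 lists cut to the length of the shortest, collagens with the mark in Glis3KO-LID numbered 7 instead of 22, those marked in Glis3KO-LID and not in WT-LID 2 instead of 16, those marked in Glis3KO-LID and not in Glis3KO-ND 1 instead of 14, and those marked in Glis3KO-LID alone 1 instead of 12. Those with both marks in Glis3KO-LID numbered 5 instead of 14, and H3K27me3 there was at 3 fibrillar collagens instead of 8 and at 4 other collagens instead of 13. The cut keeps wide regions by construction. Without the Glis3KO-LID library, 10 collagens instead of 22 had H3K27me3 in at least 1 library. Apart from the count of 22 in Glis3KO-LID itself, these alternatives were chosen after seeing the data. With factor windows of 1 kb, 6 collagens had NKX2.1, 11 had PAX8 and 1 had overlapping peaks, and with 20 kb 21 had NKX2.1 and 16 overlapping peaks. Histone windows of 500 and 2500 bp, a minimum of 500 bp covered, the most upstream TSS, predicted transcripts, peak midpoints, other basement membrane groupings and shared windows counted once moved no count further than 1.5 times. The constant and inconstant classes of H3K4me3 and its gain and loss counts were not recomputed under any alternative. A stricter peak threshold could not be applied, since the lists hold no scores. No paired analysis was possible because each group had 1 library.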
